A study of Homo sapiens with 6 samples.

Results

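The PI3K, AKT and mTOR pathway was followed through 39 genes in U2OS cells silenced for CCAR2. The genes were chosen by name, and every probe of each was taken from the table of non-normalized bead signals. Of the 39 genes, 37 had at least 1 probe and 35 had a probe detected in at least 1 array, out of 12013 genes that could be tested on the array. The genes fall into 12 activators of AKT, 8 restrainers of AKT, 7 mTOR complex genes, 3 FOXO factors and 9 other members, which are the TSC genes, RHEB and kinases and targets below AKT and mTOR.

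U2OS is a human osteosarcoma cell line, and it is the single line measured. Cells were transfected with RNAiMAX and harvested 6 days later. The silenced cells (siCCAR2, arrays D, E and F) received a pool of 4 RIBOXX siRNAs against CCAR2, and the control cells (siLUC, arrays A, B and C, labelled siCTRL) received a control siRNA. The series text describes independent triplicates, and total RNA was hybridized to 6 sections of 1 Human HT12_v4 bead chip, with siLUC in sections A to C and siCCAR2 in sections D to F, so that section and silencing cannot be told apart.

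PI3K makes a membrane lipid in response to growth factors, and that lipid brings AKT to the membrane, where PDPK1 and an mTOR complex phosphorylate and activate it. Lipid phosphatases, protein phosphatases and an inhibitor of the PI3K catalytic subunit restrain this step. Active AKT keeps FOXO transcription factors out of the nucleus and relieves the TSC brake on RHEB, which turns on mTOR and protein synthesis. Bead arrays measure the RNA of these genes and not the phosphorylation through which the pathway works.

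CCAR2, the silenced gene, had a normalized log2 bead signal of 9.88, 9.96 and 9.91 in siCCAR2 cells, against 11.43, 11.34 and 11.01 in siLUC cells. It fell by 1.34 on the log2 scale (SE 0.15, 2.53-fold lower) with an adjusted p of 0.0394 by limma over all genes tested. The call was lost when any array other than B was left out (adjusted p between 0.092 and 0.422), with differences between -1.47 and -1.26. Since bulk RNA was measured, fewer expressing cells and less RNA per cell cannot be told apart. The median raw signal of the arrays was between 105.9 and 123.4 in siCCAR2 arrays and between 110.9 and 114.5 in siLUC arrays, and 37.2% to 41.0% of probes were detected. Of 10 mesenchymal and osteoblast markers, 8 were detected in all 6 arrays and COL1A2 and TWIST1 in none. The matrix gene SPARC, was called lower in siCCAR2 cells (difference -1.71, adjusted p = 0.0394, lost when any array other than B was left out, with values between 0.152 and 0.422), and the summed raw signal of the list ranged between 69000 and 82200 in siCCAR2 cells and between 76700 and 87800 in siLUC cells. CDH1, KRT5, PTPRC, CD3D, TYROBP, CDH5, APOA1 and TTR, which mark epithelial, leukocyte, endothelial or hepatic cells, were detected in no array. Of the same lists, EPCAM, ITGB2 and ALB were detected in all 6 arrays and KRT14, CD79A, CD14, PECAM1 and VWF in some. ITGB2, with a difference of 0.30 (adjusted p = 0.768), was higher in every siCCAR2 array than in the siLUC arrays, as were 6.35% of all genes. So was CD14 (adjusted p = 0.805), and neither passed the test. CD14 was detected in 1 siCCAR2 array and 0 siLUC arrays, so its values compare signals near background. The summed raw signal of the 6 leukocyte markers ranged between 1240 and 1480 in siCCAR2 cells and between 1100 and 1290 in siLUC cells. That of the 6 epithelial markers ranged between 1210 and 1540 in siCCAR2 cells and between 1150 and 1550 in siLUC cells. For the 6 endothelial and hepatic markers it ranged between 792 and 904 in siCCAR2 cells and between 818 and 885 in siLUC cells. Their part in the results was not tested.

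None of the 35 measured pathway genes passed the test between siCCAR2 and siLUC cells. Calls needed a difference of 1.5-fold or more together with an adjusted p no higher than 0.05, which 0.0250% of the 12013 genes reached. The smallest adjusted p of a pathway gene was 0.776, that of PIK3CD, which ranked 1083 by p among all genes. At an unadjusted p under 0.05 there were also 0 pathway genes, whereas 6.49% of all genes reached it. The siCCAR2 and siLUC values overlapped for all 35 genes, whereas every siCCAR2 array lay above the siLUC arrays for 6.35% of all genes and below them for 5.68%. No pathway gene reached a fold change of 1.5, which 1.94% of all genes did.

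The log2 differences of the 35 genes lay between -0.38 (FOXO4) and 0.39 (DEPTOR). They were above 0 for 17 genes and below 0 for 18, with a median of 0.00, and above 0 for 50.9% of all genes, which also had a median of 0. PIK3R3, AKT2, INPP5D and GSK3A were each detected in no array of 1 of the conditions, so their differences compare signals near background, and no fold is given for them. The other 31 genes lay above 0 in 16 cases and below 0 in 15. The plot of the pathway among all genes tested shows these genes near the centre of the distribution.

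**Figure D1:**
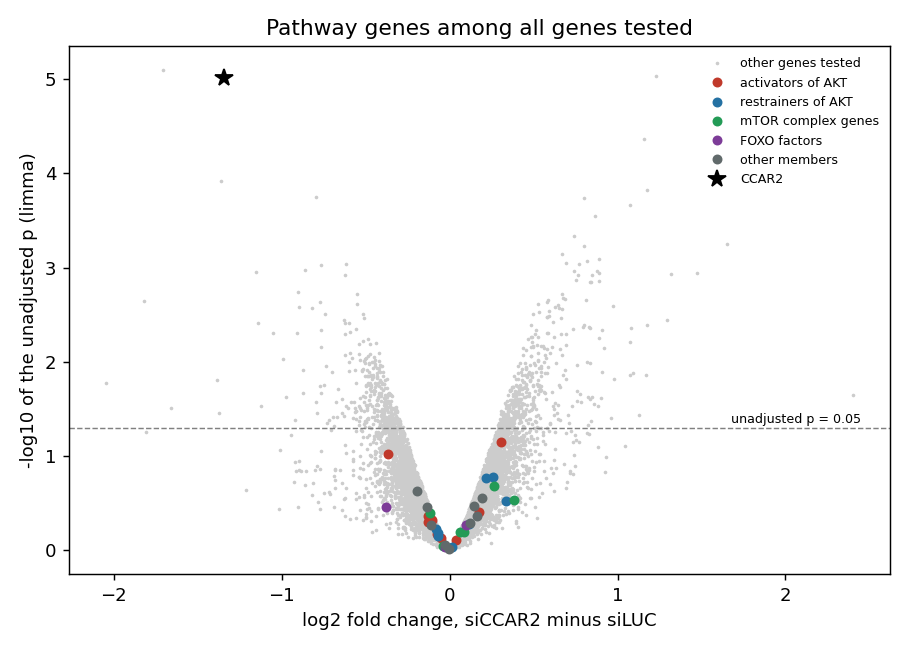
Each point is a gene, with the log2 fold change (siCCAR2 minus siLUC) on the x axis and the -log10 of the unadjusted limma p on the y axis. The 35 pathway genes, coloured by subgroup, lie between -0.38 and 0.39 and under the dashed line at an unadjusted p of 0.05, and CCAR2 (star) lies at -1.34.

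A p-value that misses the threshold does not show that a gene was equal in both conditions. The 95% interval of each difference was therefore used to state which differences in signal the 6 arrays could exclude. No background was subtracted, which makes differences of dim probes smaller, so larger differences in RNA are not excluded for them. With a background correction (neqc), DEPTOR differed by 0.57 and not 0.39, and PDPK1 by -0.45 and not -0.36, while AKT1 stayed at -0.13. The intervals also rest on the quantile normalization. With median scaling alone AKT1 differed by -0.28, and the median of all genes was then -0.11. Only the 31 genes detected in both conditions were counted, since a narrow interval at background signal says nothing of the gene. The whole interval lay within a 1.5-fold difference in either direction for 21 of the 31, and for 65.1% of the 11278 genes so detected. It lay within a 2-fold difference for 28 of the 31, and for 95.1% of those genes. The exceptions at 2-fold were PIK3IP1, DEPTOR and FOXO4. At 1.5-fold, PIK3CD, PDPK1, IRS1, INPPL1, RPTOR, AKT1S1 and FOXO1 were left outside as well. PHLPP1 was among the 21 inside, though its signals (7.08 to 7.47) lay close to background.

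**Figure D2:**
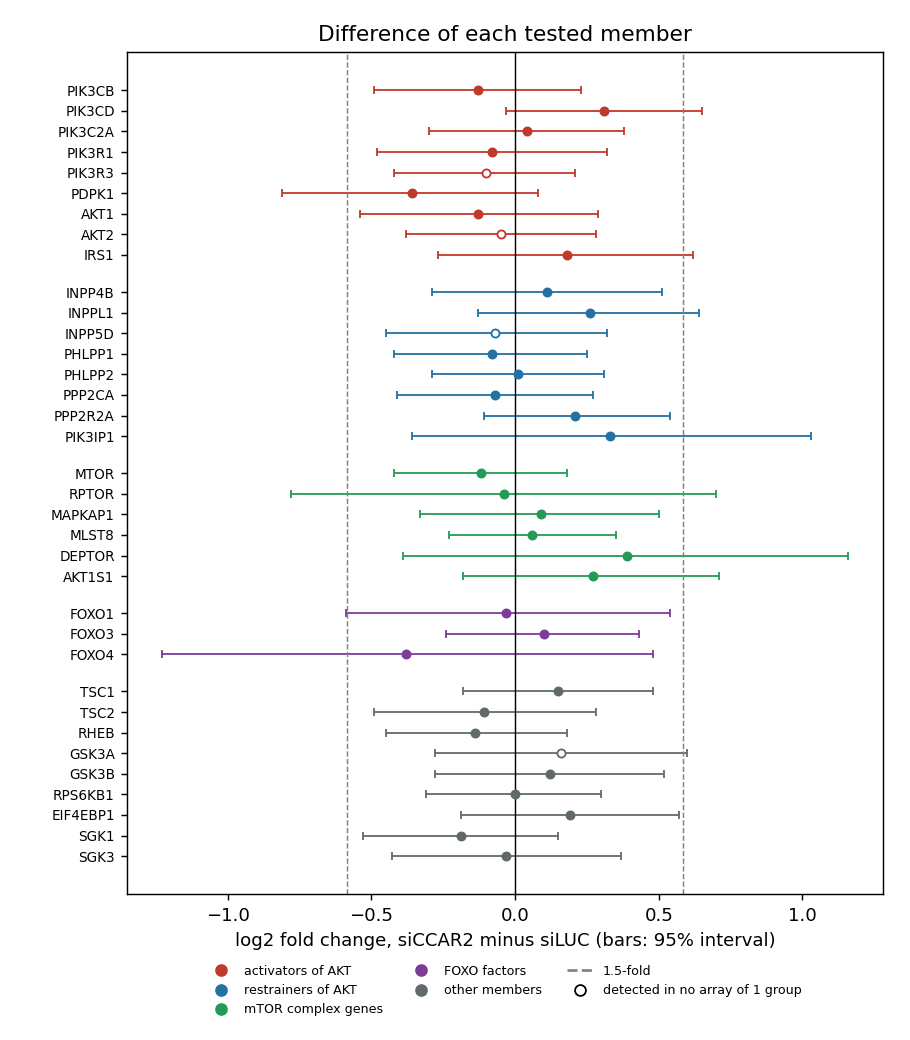
Points give the log2 fold change (siCCAR2 minus siLUC) of each tested gene, bars its 95% interval, and dashed lines a 1.5-fold difference; open points mark genes detected in no array of 1 condition. Every interval crosses 0, and those of PIK3IP1, DEPTOR and FOXO4 are the ones that reach past a 2-fold difference.

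Among the activators of AKT, 9 of 12 genes were tested, 3 lay above 0 and 6 below, and the median difference was -0.08. Those below include PIK3R3 and AKT2, whose signals lay near background. PIK3CD, a catalytic subunit of PI3K best known from leukocytes, had log2 signals of 8.88, 8.61 and 8.79 in siCCAR2 cells, against 8.66, 8.33 and 8.37 in siLUC cells. The lowest siCCAR2 array lay below the highest siLUC array, and the groups overlapped by that 1 array. PIK3CD averaged 8.76 ± 0.14 in siCCAR2 cells and 8.45 ± 0.18 in siLUC cells (SD, n = 3 each), a difference of 0.31 (95% interval -0.03 to 0.65, exact permutation p = 0.2). The smallest two-sided p that this exact test of 3 against 3 arrays can give is 0.1.

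PDPK1, the kinase that phosphorylates the activation loop of AKT, had 8.16, 8.78 and 8.32 in siCCAR2 cells, against 8.63, 9.05 and 8.67 in siLUC cells. Arrays D and F lay below every siLUC array, while array E lay above A and C. Its means were 8.42 ± 0.32 and 8.79 ± 0.23 (SD, n = 3 siCCAR2 and 3 siLUC arrays), with a difference of -0.36 (95% interval -0.81 to 0.08, adjusted p = 0.793). PDPK1 was also read by a second detected probe, on which the difference was -0.12. At the first probe the difference lay between -0.54 (without array E) and -0.23 (without array B) when 1 array was left out.

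AKT1, the central kinase of the pathway and ubiquitously expressed, had 11.37, 10.75 and 11.16 in siCCAR2 cells, against 11.20, 11.09 and 11.38 in siLUC cells. Array E held the lowest and array C the highest value, and the siLUC values lay within the siCCAR2 range except for array C. The difference was -0.13 (SE 0.18, 95% interval -0.54 to 0.29, adjusted p = 0.913), and it was 0.05 without array E. The other AKT1 probe detected in all 6 arrays gave -0.11, and a probe detected in 1 array gave 0.15.

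AKT2, the isoform best known for its role in insulin-dependent glucose uptake, was detected in siLUC array B alone. Its log2 signals were 7.13, 7.21 and 7.10 in siCCAR2 cells, against 7.11, 7.43 and 7.05 in siLUC cells. With signals this close to background, a change in AKT2 RNA was not detectable with this probe. The p110-type catalytic gene PIK3CB, with a difference of -0.13, the class II lipid kinase gene PIK3C2A, with 0.04, and the regulatory subunit gene PIK3R1, with -0.08, had adjusted p-values between 0.896 and 0.97. PIK3R3, another regulatory subunit gene, was detected in 1 siLUC array and in 0 siCCAR2 arrays.

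IRS1, an adaptor that links the insulin and IGF receptors to PI3K, had 10.08, 10.40 and 10.37 in siCCAR2 cells, against 9.82, 10.51 and 9.98 in siLUC cells, and the difference was 0.18 (95% interval -0.27 to 0.62), or 0.04 without array A and 0.38 without array B. The probe of the related adaptor IRS2 was detected in no array. PIK3CA and PIK3R2 had no probe that carried their symbol, so these subunits of PI3K were not measured here.

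**Figure D3:**
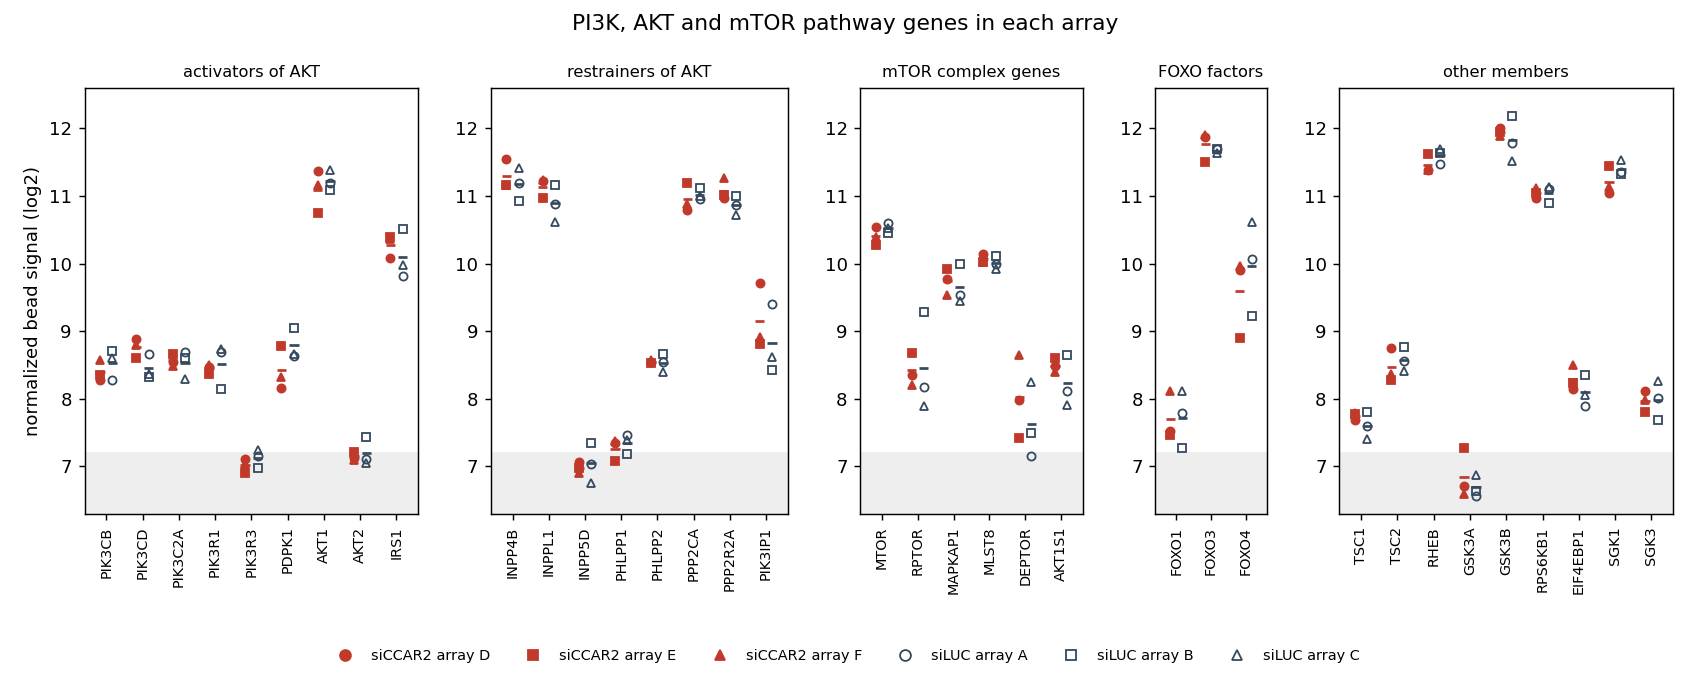
Normalized log2 bead signal (y axis) of each tested gene in siCCAR2 arrays (filled red) and siLUC arrays (open blue), with short lines at the group means and shapes for the arrays; the grey band lies close to the lowest signals detected on an array (7.10 to 7.29). The siCCAR2 and siLUC values overlap for every gene, and the signals of different genes come from different probes and cannot be set against each other.

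Among the restrainers of AKT, all 8 genes were tested, 5 lay above 0 and 3 below, and the median difference was 0.06. Those below include INPP5D, whose signals lay near background. The largest difference was that of PIK3IP1, a transmembrane protein that binds and inhibits the PI3K catalytic subunit. It had 9.72, 8.81 and 8.92 in siCCAR2 cells, against 9.41, 8.42 and 8.62 in siLUC cells. In both conditions 1 array, D and A, lay far above the other two. The means were 9.15 ± 0.50 and 8.82 ± 0.52 (SD, n = 3 siCCAR2 and 3 siLUC arrays), and the difference of 0.33 was smaller than either SD (95% interval -0.36 to 1.03, adjusted p = 0.857). It was 0.05 without array D and 0.63 without array A.

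INPPL1 encodes SHIP2, a lipid phosphatase that removes a phosphate from the product of PI3K. It had 11.22, 10.97 and 11.23 in siCCAR2 cells, against 10.88, 11.16 and 10.61 in siLUC cells. Arrays D and F exceeded every siLUC array, and array E lay between A and B. The difference was 0.26 (SE 0.17, 95% interval -0.13 to 0.64, adjusted p = 0.832, exact permutation p = 0.2 with n = 3 each). It was 0.12 without array C and 0.39 without array B.

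PPP2R2A is a regulatory subunit of protein phosphatase 2A (PP2A), which dephosphorylates AKT among other substrates. It had 10.97, 11.02 and 11.26 in siCCAR2 cells, against 10.87, 11.00 and 10.72 in siLUC cells. The groups overlapped only because siLUC array B exceeded siCCAR2 array D. The means were 11.08 ± 0.15 and 10.87 ± 0.14 (SD, n = 3 siCCAR2 and 3 siLUC arrays), with a difference of 0.21 (95% interval -0.11 to 0.54, adjusted p = 0.832). The catalytic subunit of the same phosphatase, PPP2CA, had a difference of -0.07, with -0.20 at its second probe.

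INPP4B, which dephosphorylates another PI3K lipid, had 11.55, 11.16 and 11.17 in siCCAR2 cells, against 11.19, 10.92 and 11.41 in siLUC cells, a difference of 0.11. PHLPP1 and PHLPP2 are phosphatases of the hydrophobic motif of AKT. PHLPP2 differed by 0.01 (95% interval -0.29 to 0.31). PHLPP1, detected in 2 of 3 arrays of each condition, differed by -0.08 (95% interval -0.42 to 0.25). INPP5D, the SHIP1 lipid phosphatase best known from blood cells, was detected in 1 siLUC array and in 0 siCCAR2 arrays.

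Among the mTOR complex genes, 6 of 7 were tested, 4 lay above 0 and 2 below, and the median difference was 0.07. MTOR, the kinase shared by both complexes, had 10.54, 10.28 and 10.40 in siCCAR2 cells, against 10.60, 10.46 and 10.52 in siLUC cells. Arrays E and F lay below every siLUC array, array D lay above B and C, and the difference was -0.12 (95% interval -0.42 to 0.18). MLST8, a subunit of both complexes, differed by 0.06 (95% interval -0.23 to 0.35).

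RPTOR encodes raptor, which recruits substrates to the first mTOR complex. It had 8.36, 8.68 and 8.20 in siCCAR2 cells, against 8.17, 9.29 and 7.90 in siLUC cells. The siLUC arrays held both the highest and the lowest value, and the difference of -0.04 had a wide interval (-0.78 to 0.70), or 0.39 without array B and -0.31 without array C. AKT1S1 encodes PRAS40, an inhibitor of that complex and a substrate of AKT, and it had 8.48, 8.61 and 8.39 in siCCAR2 cells, against 8.12, 8.65 and 7.91 in siLUC cells. The 3 siCCAR2 arrays lay between the highest and the second siLUC array, with a difference of 0.27 (SE 0.20, adjusted p = 0.836, exact permutation p = 0.4 with n = 3 each). It was 0.11 without array C and 0.48 without array B.

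MAPKAP1 encodes SIN1, a subunit of the second mTOR complex, which phosphorylates AKT, and its difference was 0.09 (95% interval -0.33 to 0.50). RICTOR, the subunit that defines the same complex, was represented by 1 probe, detected in no array. DEPTOR, an inhibitor that binds mTOR itself, showed the largest positive difference of all 35 genes. It had 7.98, 7.42 and 8.65 in siCCAR2 cells, against 7.16, 7.49 and 8.25 in siLUC cells. Array F was highest and array A lowest, and every array but A was above detection. The means were 8.02 ± 0.61 and 7.63 ± 0.56 (SD, n = 3 siCCAR2 and 3 siLUC arrays), with a difference of 0.39 (95% interval -0.39 to 1.16, adjusted p = 0.855). Without array F the difference was 0.07, without array C it was 0.68, and the second DEPTOR probe gave 0.12.

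The 3 FOXO factors, transcription factors that AKT inactivates by phosphorylation, were all tested, and 1 lay above 0 and 2 below. FOXO4 had 9.91, 8.90 and 9.96 in siCCAR2 cells, against 10.07, 9.22 and 10.62 in siLUC cells. Within each condition 1 array, E and B, lay well below the others, and the ranges overlapped widely. The means were 9.59 ± 0.60 and 9.97 ± 0.70 (SD, n = 3 siCCAR2 and 3 siLUC arrays), and the difference of -0.38 was again smaller than either SD (95% interval -1.23 to 0.48, adjusted p = 0.869). It was -0.75 without array B and -0.03 without array E.

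FOXO3 had 11.88, 11.51 and 11.90 in siCCAR2 cells, against 11.69, 11.69 and 11.63 in siLUC cells. The siLUC values lay within the siCCAR2 range, the difference was 0.10 (95% interval -0.24 to 0.43), and a second detected probe gave 0.08. FOXO1 had 7.52, 7.46 and 8.12 in siCCAR2 cells, against 7.79, 7.28 and 8.11 in siLUC cells, with detection in 3 siCCAR2 and 2 siLUC arrays. Its difference was -0.03 (95% interval -0.59 to 0.54).

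The element that FOXO factors bind was searched for in the promoters of the pathway genes, since FOXO factors are the transcription factors at the end of the pathway. The letters TGTTTAC and, on the other strand, GTAAACA were searched in 250 bases before and 50 bases after each RefSeq start (build GRCh38.p14). Of 33 pathway genes with a promoter in the table, 3 held a match, PIK3CA, PIK3IP1 (in 1 of its promoters) and FOXO4. These were 3 of the 61 promoters of pathway genes (4.92%), beside 3.42% of all 35116 promoters. The matches are shown in capitals, 5′ to 3′ on the strand of the gene, with 10 bases on each side. They lay 149 bases upstream of the start for PIK3CA, at chr3:179148198-179148224 (+), 16 bases downstream for PIK3IP1, at chr22:31292456-31292482 (-), and 23 bases downstream for FOXO4, at chrX:71095864-71095890 (+).
PIK3CA: gttcgttgttTGTTTACacgatgtgag
PIK3IP1: aaagagaggcTGTTTACcagaacagca
FOXO4: ccggcgagtgGTAAACAgagacgtcag
These matches describe the sequence only. PIK3IP1 and FOXO4 differed by 0.33 and -0.38, on opposite sides of 0 and both without passing the test, and PIK3CA was not measured.

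All 9 other members were tested, 4 lay above 0 and 5 below, and the median difference was 0.00. Those above include GSK3A, whose signals lay near background. TSC1 and TSC2 form the complex that switches RHEB off. TSC1 had 7.69, 7.77 and 7.79 in siCCAR2 cells, against 7.60, 7.81 and 7.40 in siLUC cells. The siCCAR2 values lay within the siLUC range, with a difference of 0.15 (95% interval -0.18 to 0.48, adjusted p = 0.868), or 0.04 without array C and 0.25 without array B. The other TSC1 probes, detected in all 6 arrays as well, gave -0.04 and 0.02, and TSC2 differed by -0.11.

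RHEB, the small GTPase that activates mTOR, had 11.38, 11.62 and 11.38 in siCCAR2 cells, against 11.47, 11.63 and 11.70 in siLUC cells. Arrays D and F lay below every siLUC array and array E above A, and the difference was -0.14 (95% interval -0.45 to 0.18, adjusted p = 0.870). Of the kinases and targets downstream, RPS6KB1, a ribosomal protein S6 kinase activated by mTOR, differed by 0.00 (95% interval -0.31 to 0.30). EIF4EBP1, a repressor of translation that mTOR inactivates, had 8.15, 8.24 and 8.50 in siCCAR2 cells, against 7.90, 8.36 and 8.06 in siLUC cells. Array F was the highest and array A the lowest, and the difference was 0.19 (95% interval -0.19 to 0.57, adjusted p = 0.854), or 0.09 without array F and 0.32 without array B.

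SGK1 and SGK3 are kinases related to AKT that share some of its substrates. SGK1 had 11.05, 11.44 and 11.14 in siCCAR2 cells, against 11.36, 11.33 and 11.53 in siLUC cells. Arrays D and F lay below every siLUC array and array E above A and B, with a difference of -0.19 (95% interval -0.53 to 0.15, adjusted p = 0.845). The other detected SGK1 probes gave -0.04 and -0.03, and SGK3 differed by -0.03. GSK3B, a kinase inhibited by AKT, had 12.01, 11.95 and 11.89 in siCCAR2 cells, against 11.79, 12.18 and 11.52 in siLUC cells, and differed by 0.12 (95% interval -0.28 to 0.52). GSK3A, its paralogue, was detected in siCCAR2 array E alone, at 7.27.

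All 65 probes of the 37 genes were examined, and 49 were detected in at least 1 array. None of these 49 reached an unadjusted p under 0.05, as 6.29% of the 20857 detected probes did, and their smallest unadjusted p was 0.0619 (limma, adjusted p = 0.789). For 10 genes more than 1 probe was detected. All detected probes lay on 1 side of 0 for 5 of them (PDPK1, PPP2CA, DEPTOR, FOXO3 and SGK1) and on both sides for the other 5 (AKT1, MAPKAP1, PIK3C2A, TSC1 and SGK3). In PDPK1, DEPTOR, FOXO3, TSC1 and SGK1 the probe used for the gene gave a larger absolute difference than its other detected probes, as seen in the plot of the probes. In AKT1, MAPKAP1, PIK3C2A, PPP2CA and SGK3 another detected probe gave a larger one. Among probes detected equally often, that with the highest interquartile range over all 6 arrays was used, a rule that favours larger differences.

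**Figure D4:**
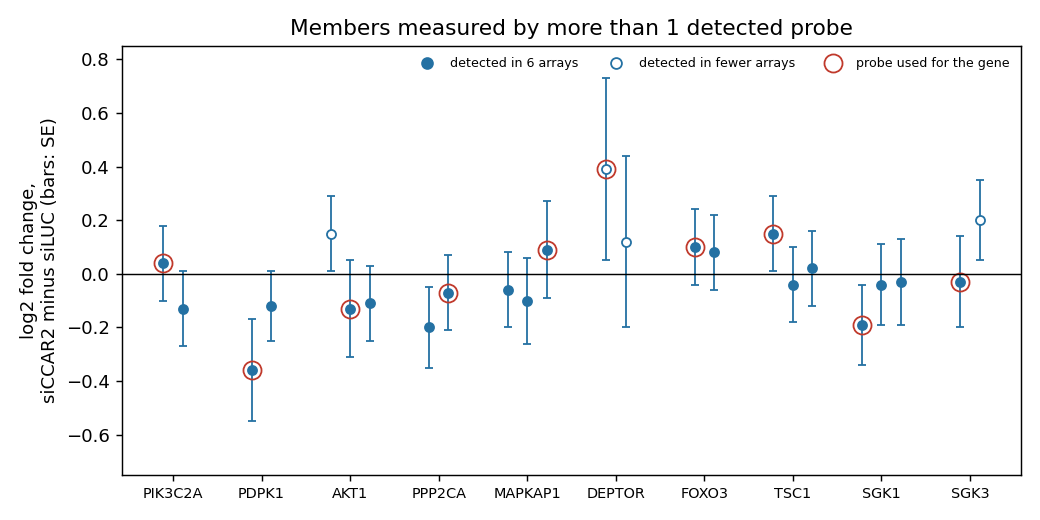
Log2 fold change (siCCAR2 minus siLUC) with its SE of every detected probe of the genes with more than 1 detected probe; filled points were detected in all 6 arrays and red circles mark the probe used for the gene. AKT1, MAPKAP1, PIK3C2A, TSC1 and SGK3 have probes on both sides of 0.

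The spread between arrays of 1 condition was larger than the difference between conditions for most of the 35 genes. The pooled SD had a median of 0.22 over the 35 genes and of 0.19 over all genes. The absolute difference had a median of 0.12 over the 35 genes and of 0.13 over all genes. It exceeded the gene's own SD for 7 of the 35, which was not counted over all genes. FOXO4 (SD 0.65), DEPTOR (0.59), RPTOR (0.55) and PIK3IP1 (0.51) varied more between replicate arrays than at least 96.1% of all genes. Their intervals were the widest of the 35, which follows from the spread, since the intervals are computed from it.

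No label says which siLUC array was prepared together with which siCCAR2 array, so the arrays were not paired in the fit. The deviations of arrays from their condition mean, over all genes, correlated for A with D (0.615), B with E (0.665) and C with F (0.440). These couples thus come from these same data. They also follow the order of the arrays in each condition (A, B, C and D, E, F), which no label calls a pairing. Choosing couples by such correlations favours close differences within them and small p-values with them as a block. In these couples PIK3IP1 was 0.31, 0.39 and 0.31 higher in the siCCAR2 array, which is a closer range than that of its 3 arrays in either condition. PIK3CD was higher by 0.22, 0.28 and 0.42, and PPP2R2A by 0.10, 0.01 and 0.53. The siCCAR2 array was lower in all 3 couples for PDPK1 (-0.47, -0.27 and -0.36), FOXO4 (-0.16, -0.31 and -0.65), MTOR (-0.06, -0.17 and -0.13), RHEB, PIK3R3 and PHLPP1. These 9 of 35 genes had 1 direction in all couples, and 38.8% of all genes did. PIK3R3 was detected in no siCCAR2 array, so its couples compare signals near background.

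**Figure D5:**
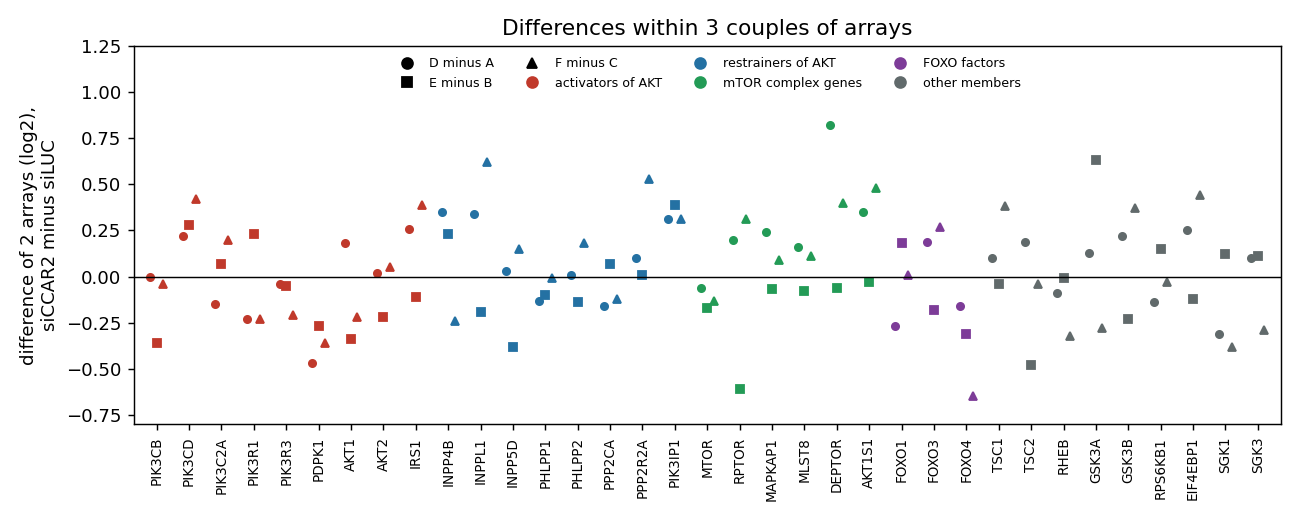
Difference of the log2 signals of 2 arrays (siCCAR2 minus siLUC) for each tested gene, in the couples D and A (circles), E and B (squares) and F and C (triangles), coloured by subgroup. PIK3CD, PPP2R2A and PIK3IP1 lie above 0 in all 3 couples, and PDPK1, FOXO4, MTOR, RHEB, PIK3R3 (signals near background) and PHLPP1 below 0.

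With these couples as a block in the fit, 0 pathway genes were called, against 1.66% of all genes. PIK3CD, PIK3IP1 and DEPTOR on the higher side and PDPK1 and FOXO4 on the lower side reached an unadjusted p under 0.05, 5 of 35 genes against 17.3% of all genes, and the smallest adjusted p was 0.138, that of PDPK1. No pathway gene was called under any other of the 6 possible pairings, where the share of all genes called was 0.125% for A-F B-E C-D and 0% for the rest.

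The genes around these members were described from 4 further lists. Of 43 other genes of PI3K and AKT signalling, 33 were tested, and 19 lay above 0 and 14 below, with a median of 0.04. None was called, and 1 in each direction reached an unadjusted p under 0.05 (3.49% of all genes did so on the higher side and 3.01% on the lower). SHC1, an adaptor of growth factor receptors, had 8.62, 8.59 and 8.52 in siCCAR2 cells, against 8.17, 8.21 and 7.86 in siLUC cells, a difference of 0.50 (SE 0.14, adjusted p = 0.747). The scaffold gene GAB1, with -0.32, its paralogue GAB2, with 0.27, and PPP2R1B, a PP2A scaffold subunit, with 0.26, had adjusted p-values between 0.767 and 0.793. The groups did not overlap for 6 genes on the higher side and 2 on the lower side, against 6.35% and 5.68% of all genes.

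Of 55 other genes of mTOR signalling, 50 were tested, 32 lay above 0 and 18 below, and the median was 0.11. Of all genes, 50.9% lay above 0. None of the 50 was called, and 3 reached an unadjusted p under 0.05, all higher in siCCAR2 cells. Among all genes 3.49% did so on the higher side and 3.01% on the lower. SESN2, a stress-induced leucine sensor that inhibits mTOR, had 7.75, 8.04 and 8.64 in siCCAR2 cells, against 7.59, 7.63 and 7.24 in siLUC cells, and the groups did not overlap (difference 0.66, SE 0.23, adjusted p = 0.767). PRR5, a subunit of the second mTOR complex, had 10.46, 10.21 and 10.46 in siCCAR2 cells, against 9.91, 9.91 and 9.85 in siLUC cells, with a difference of 0.49 (SE 0.13, adjusted p = 0.701). Without array D or F another PRR5 probe was chosen, on which the difference was 0.12 and 0.09. LAMTOR4, a part of the lysosomal anchor of mTOR, differed by 0.49 (SE 0.19, adjusted p = 0.767), and EIF4E, the cap-binding protein that EIF4EBP1 holds, by -0.29. Of the 50 genes, 8 on the higher side and 2 on the lower had groups that did not overlap, beside 6.35% and 5.68% of all genes.

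Of 20 other targets of AKT and of its relatives, 17 were tested, 8 above 0 and 9 below, with a median of -0.01. NDRG1, a substrate of SGK1, had 10.86, 10.88 and 11.12 in siCCAR2 cells, against 11.41, 11.23 and 11.67 in siLUC cells, a difference of -0.48 (SE 0.16, adjusted p = 0.767). PRKCA, a protein kinase C, differed by -0.34, NDRG2 by 0.32 and PFKFB2, a regulator of glycolysis, by 0.28, and none of the 17 was called.

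Of 38 genes that FOXO factors are known to regulate, 31 were tested, 15 lay above 0 and 16 below, and the median was 0.00. CDKN1B, an inhibitor of cyclin-dependent kinases, had 9.99, 9.76 and 9.98 in siCCAR2 cells, against 10.90, 10.44 and 10.69 in siLUC cells. All 3 siCCAR2 arrays lay below the siLUC arrays, with a difference of -0.77 (SE 0.16), and the adjusted p over all genes was 0.486. With the block of the couples above it was 0.00377 and with array quality weights 0.0446, and over all alternatives it ranged between 0.00377 and 1, with the difference between -0.90 and -0.66. SOD2, the mitochondrial superoxide dismutase, differed by 0.65 (adjusted p = 0.767, 0.0427 with the block and up to 1 over the alternatives), GABARAPL1, an autophagy gene, by 0.43, and BCL2L11, which promotes apoptosis, by -0.49. The known FOXO targets lay on both sides of 0, as all genes did (50.9% above 0). Whether FOXO factors raise or lower each target was not taken into account. An unadjusted p under 0.05 was reached by 2 on the higher side and 2 on the lower, beside 3.49% and 3.01% of all genes. With the block of the couples, whose choice favours small p-values, 2 of the 31 were called, beside 1.66% of all genes. Without a block, 1 of the 31, CDKN1B, passed the test with array quality weights, as did 18 of all 12013 genes. In the unweighted fit 0 of the 31 passed, and 3 of all genes.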

How the data were processed

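Total RNA of 3 siCCAR2 and 3 siLUC samples was measured on Illumina HT12_v4 bead arrays. The authors deposited non-normalized mean bead signals, an intensity on a linear scale, with a detection p-value for each probe and array, and a table of normalized intensity values on a linear scale. Per the labels BeadStudio 3.8 was used, and the methods name GenomeStudio. The methods also name robust spline normalization, which was not run here and was replaced by quantile normalization. The labels name an extraction kit and a labelling guide other than those of the methods.

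The log2 of the signals was quantile normalized, and no background was subtracted. Of 47321 probes, 30112 carry 1 gene symbol. A probe entered when its detection p-value was below 0.01 on 1 or more arrays (20857 probes), and each symbol was represented by 1 probe, that detected in most arrays and then that with the highest interquartile range, which left 12013 genes. The groups were compared in limma 3.58.1 (R 4.3.3), by lmFit and then eBayes, and p-values were adjusted over all genes tested by the Benjamini-Hochberg method. Intervals of 95% came from the same fit. Single genes were also compared with a two-sided exact permutation test over 20 regroupings. The number of arrays limits the precision. Python 3.11.15 with matplotlib 3.10.9 drew the figures.

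The members and gene lists were chosen with earlier results of these data known. Values in every array are given for the 12 members with the smallest p, for AKT1 and AKT2 and, beyond that rule, for some others to complete each group, and of the other lists the 4 genes with the smallest p are named. Promoter sequences are those of RefSeq (GRCh38.p14). As alternatives, each array was left out, a replicate block was added under each of 6 pairings, and neqc (offset 16), median scaling, the deposited table, looser and stricter detection filters, another choice of probe, array quality weights, a robust eBayes with a trend and calls without the fold threshold were tried. The fit was tested on simulated data.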

Additional observations from a re-analysis of the deposited data

How the results depend on the processing

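No pathway gene was called under any of the alternatives. The number of members at an unadjusted p under 0.05, which was 0, became 1 with median scaling alone (PDPK1, 4.35% of all genes), 1 without the detection filter (PIK3CD, 6.33% of all genes), 5 with array quality weights (18.6% of all genes) and between 0 and 4 when 1 array was left out (4 without array B, 16.8% of all genes). With the replicate block it was 5 for the pairing A-D B-E C-F (17.3% of all genes), 1 for A-E B-D C-F (4.60%) and 2 for A-F B-E C-D (9.88%), and the smallest adjusted p of a member over the pairings was 0.138. The fold change of CCAR2 was -1.41 with neqc (adjusted p = 0.103), -1.48 after scaling by the median (0.0597) and -1.34 where the brightest probe of each gene was taken (0.0596). It was between -1.47 and -1.26 when 1 array was left out, and the call was lost without A, C, D, E or F (adjusted p between 0.092 and 0.422). With the replicate block it stayed at -1.34, and the adjusted p was 8.5e-05 for A-D B-E C-F, 0.0122 for A-F B-E C-D and between 0.113 and 1 for the other 4 pairings.

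Median scaling alone moved the median of all genes to -0.11, activators to -0.20, restrainers to -0.05, mTOR complex genes to -0.09, other members to -0.14, other mTOR genes to -0.02 and other PI3K and AKT genes to -0.04. When 1 array was left out, the median was between 0.00 and 0.29 for mTOR complex genes, between -0.04 and 0.08 for other members and between 0.05 and 0.13 for other mTOR genes. AKT1 turned to 0.05 without array E and PIK3IP1 to -0.03 with array quality weights, both on the same probe, and the cause was not tested. SGK1 turned to 0.08 without array D, TSC1 to -0.12 with median scaling alone and NDRG2 to -0.25 without array A and to -0.25 without array F, each with another probe chosen. Other members changed sign as well. The most frequent were PIK3C2A (in 6 of 21 settings, between -0.26 and 0.08) and FOXO1 (in 5 of 21, between -0.25 and 0.16). Over the arrays left out, with the probe chosen anew each time, AKT1 was between -0.19 and 0.05, SGK1 between -0.30 and 0.08 and NDRG2 between -0.25 and 0.41. On the probe used for the gene in the main fit, AKT1 was between -0.27 and 0.05 and SGK1 between -0.30 and -0.11. SPARC lost its call with neqc (adjusted p = 0.103), median scaling alone (0.0597), the brightest probes (0.0596) and 4 of the 6 pairings (0.0518 to 1). PIK3R3, AKT2, INPP5D, GSK3A, IRS2 and RICTOR were limited by signals near background.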
